A study of Homo sapiens with 21 samples.

Results

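The comparison described here set cells exposed to 0.01 µM coumarin against untreated cells, over every gene in the deposited count table. Its members were the libraries labelled with these doses, 3 at 0.01 µM and 3 at 0 µM, 6 of the 21 libraries of the series. The label names the cells as HepG2, an established human liver tumour line. Both groups spent 24 h in fresh medium without serum; the 0.01 µM group received coumarin diluted in that medium and the 0 µM group received none. The other libraries came from 5 further doses, and those at 0.001, 0.1 and 1 µM, with 9 libraries, served as a second set to compare with. Polyadenylated RNA was converted to cDNA and sequenced, and reads were counted per gene. Of 58735 genes in the table, 16699 had enough reads to be tested, and the rest were not tested.

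Coumarin is a plant lactone used as a fragrance. In human liver it is hydroxylated mainly by the cytochrome P450 enzyme CYP2A6. Immediate early genes, such as EGR1 and FOS, encode transcription factors whose RNA is made within minutes of a growth or stress signal and is short-lived. Collagens, laminins and their crosslinking enzymes build the extracellular matrix that adherent cells lay down, and mitochondrial DNA encodes a small part of the respiratory chain.

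Secreted protein markers of hepatocytes were nearly absent from both groups, and transcription factor markers were mixed. Of 18 hepatocyte secreted proteins, 8 had 0 counts in the 6 libraries, among them ALB (albumin), TTR, APOB and FGB, and 0 counts in a library are compatible with up to 3. Their summed level was 1.98 to 2.66 CPM, the read count scaled to library size at 0.01 µM, against 2.20 to 2.37 CPM in untreated cells. Of 10 hepatocyte transcription factors, 3 had 0 counts and 2 averaged at least 1 CPM. HNF4A, a transcription factor that defines hepatocytes, had 5 counts over the 6 libraries. FOXA1 averaged 14.8 CPM at 0.01 µM, against 13.4 CPM in untreated cells, and CEBPA 1.80 CPM, against 1.83 CPM. The transcription factor list summed to 15.2 to 17.8 CPM, against 14.5 to 16.6 CPM. Simple epithelial markers summed to 4925 to 5008 CPM at 0.01 µM, against 4338 to 4837 CPM in untreated cells. That sum was mostly KRT8 (2693 against 2407 CPM), KRT18 and KRT7. KRT8 and SFN were apart between groups, while KRT7 and KRT18 overlapped. Over the 6 libraries EPCAM had 1 count, KRT19 7, CDH1 26 and SOX9 69. Fibroblast and mesenchymal markers summed to 1813 to 1847 CPM at 0.01 µM, against 1604 to 1690 CPM in untreated cells. Squamous and basal markers summed to 153 to 157 CPM at 0.01 µM, against 123 to 136 CPM in untreated cells, nearly all of it KRT17. KRT14 had 17 counts over the 6 libraries, TP63 3, and KRT5 and DSG3 0. Leukocyte markers summed to 4.51 to 4.59 CPM, against 3.36 to 4.31 CPM, and endothelial markers to 2.18 to 2.41 CPM, against 2.16 to 3.04 CPM. The epithelial, mesenchymal, squamous and leukocyte sums did not overlap between the groups, and their part in the results below was not tested. Most of the mesenchymal difference lay in COL3A1, also a gene of the matrix list below, which averaged 1336 CPM at 0.01 µM, against 1164 CPM in untreated cells. COL1A1 and PDGFRB were also apart between groups. Another mesenchymal marker, VIM, averaged 312 CPM, against 315 CPM, ACTA2 3.10 CPM, against 3.16 CPM, and PDGFRA had 0 counts. The leukocyte sum was nearly all CSF1R, at 4.38 CPM, against 3.66 CPM, while PTPRC, CD3E and MS4A1 had 0 counts. The cells are called by their label only as a label. In bulk RNA, fewer cells of a type and less RNA per cell cannot be told apart.

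Total counts were 28876662 to 33205334 per library at 0.01 µM, against 29254566 to 29953336 in untreated cells, within the 26984563 to 43375429 of the series. The libraries differed in the share of the total behind the deposited FPKM values that lay outside the counted genes. That share was 4.30, 2.39 and 1.04% in 0.01 µM replicates 1 to 3, against 3.91, 8.03 and 8.17% in untreated replicates 1 to 3. Untreated replicates 2 and 3 had the highest values of the 21 libraries, and 0.01 µM replicate 3 the lowest. The share therefore moved with the comparison, its part in the results was not tested beyond the refits given below, and values with and without these libraries are given with the main results.

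At 0.01 µM, 978 genes differed from untreated cells, 796 higher and 182 lower, at an adjusted p under 0.05 in edgeR's quasi-likelihood test. That was 5.86% of the genes tested, 4.77% higher and 1.09% lower. Most differences were small: the median fold was 1.16 among genes that rose and 1.20 lower among genes that fell, and 51 genes differed by at least 1.5-fold. Protein-coding genes made up 772 of the rises and 131 of the falls, while non-coding genes and pseudogenes made up 24 of the rises and 51 of the falls. Of the 16699 genes tested, 12613 were protein-coding. With upper-quartile scaling the split was 545 higher and 292 lower. The median log2 difference over all genes tested was -0.01. The groups did not overlap in 944 of the 978 genes called. Over all genes tested, the groups were apart with higher values in 13.6% and with lower values in 10.3%. Genes of small p tend to have groups that are apart, so the 944 add nothing to the calls. The largest rises and falls and those of smallest p named below were also chosen for groups that do not overlap.

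The call count depended on the libraries that stood apart. With untreated replicate 1 as the only untreated library, 302 genes were called; of the 978 genes, 977 kept their direction and 227 kept their call. Without 0.01 µM replicate 3 and untreated replicates 2 and 3, 174 genes were called, 153 higher and 21 lower. With the outside-gene share of each library entered as a covariate, 38 were called and 970 of the 978 kept their direction. The genes whose values are given below lost their call against untreated cells under this covariate, except those said to have passed under each alternative. Leaving out single libraries gave 439 calls without untreated replicate 3, 487 without 0.01 µM replicate 2 and 569 without 0.01 µM replicate 3.

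Against the 0.001, 0.1 and 1 µM libraries, a comparison that holds no untreated library, 19 genes differed at 0.01 µM, 17 higher and 2 lower. That was 0.114% of the genes tested, 0.102% higher and 0.012% lower, and 1355 genes had an unadjusted p under 0.05. Of these 19 genes, 16 had also passed against untreated cells in the same direction, which is 84.2% of the 19 and 1.64% of the 978. Both comparisons use the same 3 libraries at 0.01 µM, so the shared genes are no independent repeat. The one against 0.001, 0.1 and 1 µM takes the mean of these doses, and its p does not measure the spread between them. The 15 shared rises included EGR1, FOS, IER2, NXPH4, KDM6B, CDK18, SLC2A1, CIC, ELMSAN1, IRS2, HSPB7, ULK1, ZBTB4 and the non-coding AL162413.1. The count of 19 became 2, 5 and 7 without 0.01 µM replicates 3, 2 and 1, 8 without 0.1 µM replicate 3, and 89, 49 and 43 without 0.001 µM replicate 3, 0.1 µM replicate 1 and 1 µM replicate 1.

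EGR1, a zinc-finger transcription factor, had the largest rise among the protein-coding genes named by rule. It had 5.18, 6.98 and 4.62 CPM at 0.01 µM, against 2.37, 1.71 and 2.10 CPM in untreated cells. The rule required that the groups not overlap, and all levels were low. The fitted rise was 2.72-fold (log2 1.44 ± 0.22 SE, n = 3 each, edgeR adjusted p = 0.0001995). FOS, a subunit of the AP-1 transcription factor named by the same rule, had 42.1, 51.9 and 42.97 CPM at 0.01 µM, against 28.6, 24.5 and 26.4 CPM in untreated cells. It rose 1.72-fold (log2 0.79 ± 0.13 SE, edgeR adjusted p = 0.002224). Both calls held in the 6 leave-one-out fits and ended with untreated replicate 1 alone, and that of FOS also without the 3 libraries that stood apart.

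The promoters of EGR1 and FOS are shown because these genes had the 2 largest rises against the neighbouring doses. Each is the 250 bases before the RefSeq start on GRCh38.p14, plus strand, 5′ to 3′, at chr5:138465229-138465478 for EGR1 and chr14:75278578-75278827 for FOS. Capitals mark CArG boxes, the motif of serum response factor, and the core TGACGT or its reverse complement ACGTCA, the motif of CREB and ATF factors.
EGR1: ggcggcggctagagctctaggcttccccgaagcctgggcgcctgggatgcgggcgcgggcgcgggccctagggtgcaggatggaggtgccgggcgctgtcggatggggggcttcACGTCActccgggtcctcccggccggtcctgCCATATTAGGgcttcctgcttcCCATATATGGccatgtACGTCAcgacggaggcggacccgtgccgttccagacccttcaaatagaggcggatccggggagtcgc
FOS: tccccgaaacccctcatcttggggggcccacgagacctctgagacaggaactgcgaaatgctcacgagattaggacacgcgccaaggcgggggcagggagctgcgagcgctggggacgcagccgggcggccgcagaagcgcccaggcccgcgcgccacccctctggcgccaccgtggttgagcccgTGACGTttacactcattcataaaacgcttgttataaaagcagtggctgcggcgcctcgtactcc

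The EGR1 window held 2 CArG boxes, starting 105 and 83 bases before the start, and 2 CREB cores, starting 136 and 67 bases before it. The FOS window held 1 core, starting 64 bases before the start. Of the other immediate early genes that rose, FOSL2 held 1 core in its window, starting 66 bases before the start. The windows of NR4A1 and IER2 held neither motif. CYR61 also rose, but no window of it was among those searched. Both strands were searched, and the motifs did not overlap. Bases farther before the start than the window were not searched, so the absence of a motif holds for the window only. Among 35116 promoter windows of the same length, 1.16% held a CArG box, 7.1% held the core and 0.0769% held both. A match of letters is a description and not evidence that a factor binds there.

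Of the 21 immediate early genes tested, 6 rose against untreated cells (EGR1, FOS, NR4A1, CYR61, FOSL2 and IER2) and 15 did not pass. Over all genes tested 4.77% rose and 1.09% fell, which is the background for this list and each list below. The median log2 difference of the list was 0.12, beside -0.01 over all genes tested. NR4A1, an orphan nuclear receptor, had 30.5, 32.3 and 30.0 CPM at 0.01 µM, against 26.9, 23.9 and 23.1 CPM in untreated cells (log2 0.33, edgeR adjusted p = 0.001102). FOSL2, another AP-1 subunit, had 191, 199 and 206 CPM, against 169, 173 and 171 CPM. Neither pair of groups overlapped.

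Members that did not pass include close relatives of those that rose. JUNB, an AP-1 partner of FOS, had 68.4, 74.8 and 66.1 CPM at 0.01 µM, against 58.2, 57.5 and 57.4 CPM in untreated cells, with an edgeR adjusted p of 0.0510. JUN had 17.7, 15.5 and 15.5 CPM, against 17.5, 17.6 and 17.9 CPM. DUSP1, a phosphatase that switches off MAP kinases, had 149, 151 and 140.2 CPM, against 159, 163 and 153 CPM. The stress-induced factor ATF3 had 6.63, 6.61 and 6.71 CPM, against 6.01, 6.91 and 6.04 CPM, and its groups overlapped.

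Against 0.001, 0.1 and 1 µM, 4 members of the list rose (EGR1, FOS, IER2 and JUNB), beside 0.102% of all genes. Their log2 differences were 1.09, 0.86, 0.24 and 0.34, with edgeR adjusted p of 0.004448, 0.004448, 0.01714 and 0.0452. The list's median log2 difference was 0.07 there, beside 0.00 over all genes tested. FOS and IER2 overlapped the 1 µM libraries. Their lowest values at 0.01 µM were 42.1 and 53.3 CPM, against 42.4 and 53.5 CPM in 1 µM replicate 3. In EGR1 and JUNB every 0.01 µM library was above every library at 0.001, 0.1 and 1 µM. Without any 1 of the 0.01 µM replicates, 2 of the 4 calls were left, and 1 without the 3 libraries that stood apart. Against untreated cells the 6 calls became 5 to 7 when 1 library was left out, but 1 with untreated replicate 1 alone and 1 without the 3 libraries that stood apart.

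Across the doses FOS did not move in 1 direction. It averaged 26.5 ± 2.1 CPM at 0 µM, 18.3 ± 1.7 at 0.001 µM, 45.6 ± 5.4 at 0.01 µM, 23.1 ± 4.8 at 0.1 µM, 37.9 ± 4.0 at 1 µM, 35.3 ± 4.5 at 10 µM and 50.9 ± 2.0 at 100 µM (SD, n = 3 each). The level at 0.01 µM was thus the second highest, behind 100 µM. EGR1 averaged 2.06, 3.00, 5.59, 1.75, 3.56, 2.15 and 3.77 CPM over the same doses, and its level at 0.01 µM was the highest. JUNB was also highest at 0.01 µM, at 69.7 ± 4.5 CPM, with the other dose means between 49.7 and 59.4 CPM.

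**Figure D1:**
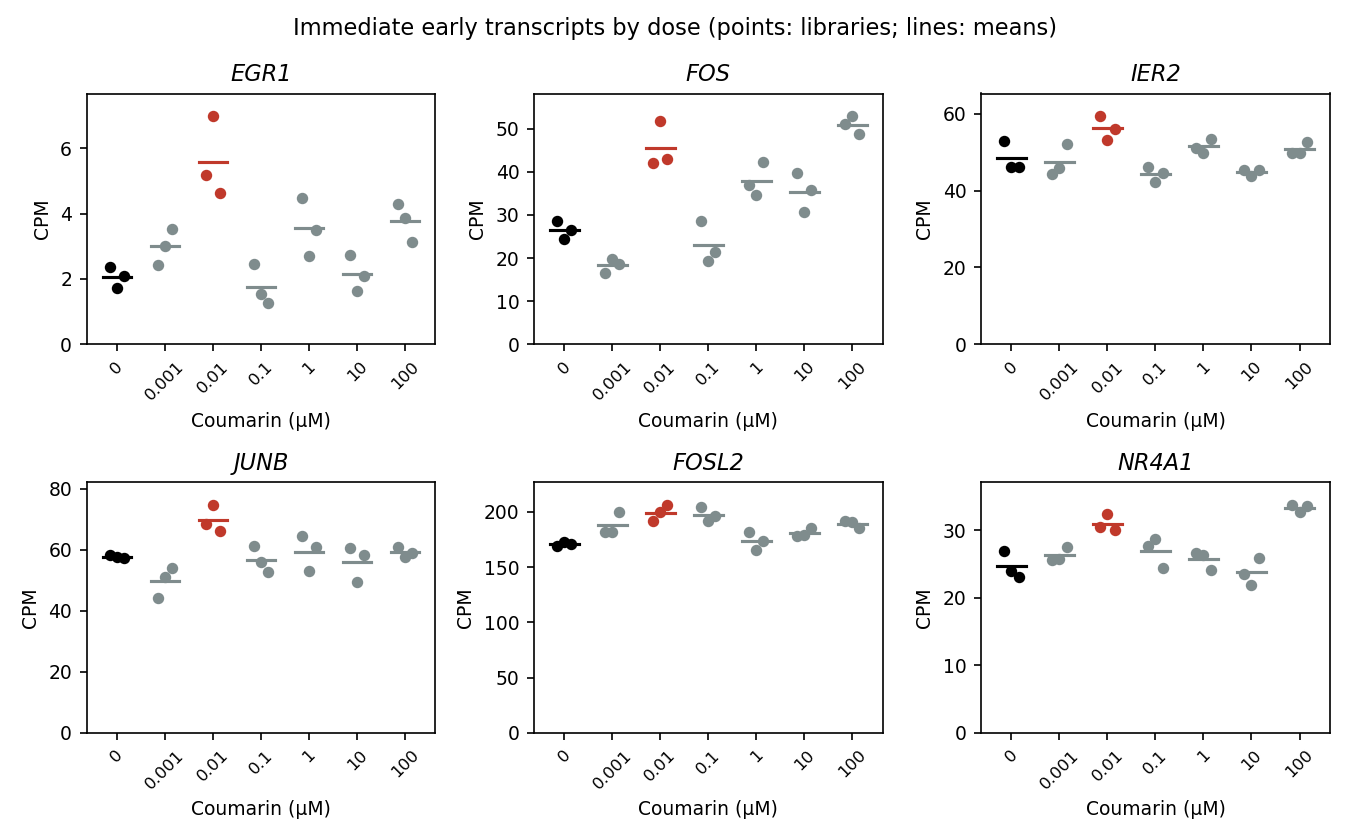
Level of 6 immediate early transcripts in CPM (vertical axis, from 0) at each coumarin dose in µM (horizontal axis, not to scale); points are libraries, lines are means of 3, red is 0.01 µM and black is untreated. EGR1, FOS, IER2, JUNB and NR4A1 stand above both neighbouring doses at 0.01 µM, while FOSL2 is as high at 0.1 µM. FOS and NR4A1 have higher means at 100 µM.

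Other genes that passed both comparisons act outside this group. NXPH4, a secreted neurexophilin, had 29.6, 31.5 and 35.3 CPM at 0.01 µM, against 22.4, 21.6 and 22.4 CPM in untreated cells, and rose 1.45-fold (edgeR adjusted p = 8.736e-06). KDM6B, a demethylase of histone H3 lysine marks, had 34.4, 31.2 and 34.5 CPM, against 22.5, 23.6 and 24.6 CPM. CIC, a transcriptional repressor named here after its values were seen, had 102, 116 and 109.5 CPM at 0.01 µM, against 78.2, 83.95 and 83.5 CPM in untreated cells. In these 3 genes every treated library was above every untreated one, which the rule required of NXPH4 and KDM6B.

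IRS2, an adaptor of the insulin receptor, had 57.7, 60.4 and 58.7 CPM at 0.01 µM, against 46.0, 48.6 and 46.5 CPM in untreated cells. SLC2A1, the glucose transporter GLUT1, had 162, 172 and 165 CPM, against 133, 132 and 131 CPM. Their groups did not overlap, and they rose 1.25-fold and 1.26-fold. The calls of KDM6B, CIC and IRS2 against untreated cells passed under each of the 20 alternatives. That of NXPH4 ended with the covariate (1 of 20), and that of SLC2A1 with the covariate and without the 3 libraries that stood apart.

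Against 0.001, 0.1 and 1 µM the log2 differences were 0.35 for NXPH4, 0.29 for KDM6B, 0.23 for SLC2A1, 0.22 for CIC and 0.21 for IRS2. Each of these calls ended without 0.01 µM replicate 3. They also ended without replicate 1 for KDM6B and SLC2A1 and without replicate 2 for CIC, IRS2 and SLC2A1, without 0.1 µM replicate 3 for CIC and SLC2A1, and that of EGR1 ended without replicate 2. IRS2 averaged 47.1 ± 1.4 CPM at 0 µM, 51.3 ± 0.34 at 0.001 µM, 59.0 ± 1.4 at 0.01 µM, 51.3 ± 1.9 at 0.1 µM and 50.2 ± 3.0 at 1 µM (SD, n = 3 each). KDM6B and CIC at 0.01 µM overlapped the libraries at 0.001 µM, and CIC also those at 0.1 µM. In NXPH4, IRS2 and SLC2A1 every 0.01 µM library was above every library at 0.001, 0.1 and 1 µM.

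PSAT1, an enzyme of serine synthesis, and the non-coding AC048341.2 were the genes lower than at 0.001, 0.1 and 1 µM. PSAT1 had 156, 162 and 155 CPM at 0.01 µM, against 168, 163 and 161 CPM in untreated cells, where the groups overlapped and the edgeR adjusted p was 0.489. Its log2 difference from the neighbouring doses was -0.16 (edgeR adjusted p = 0.0284). Leaving out any 1 of the 0.01 µM replicates, or 0.1 µM replicate 2 or 3, ended that call.

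**Figure D2:**
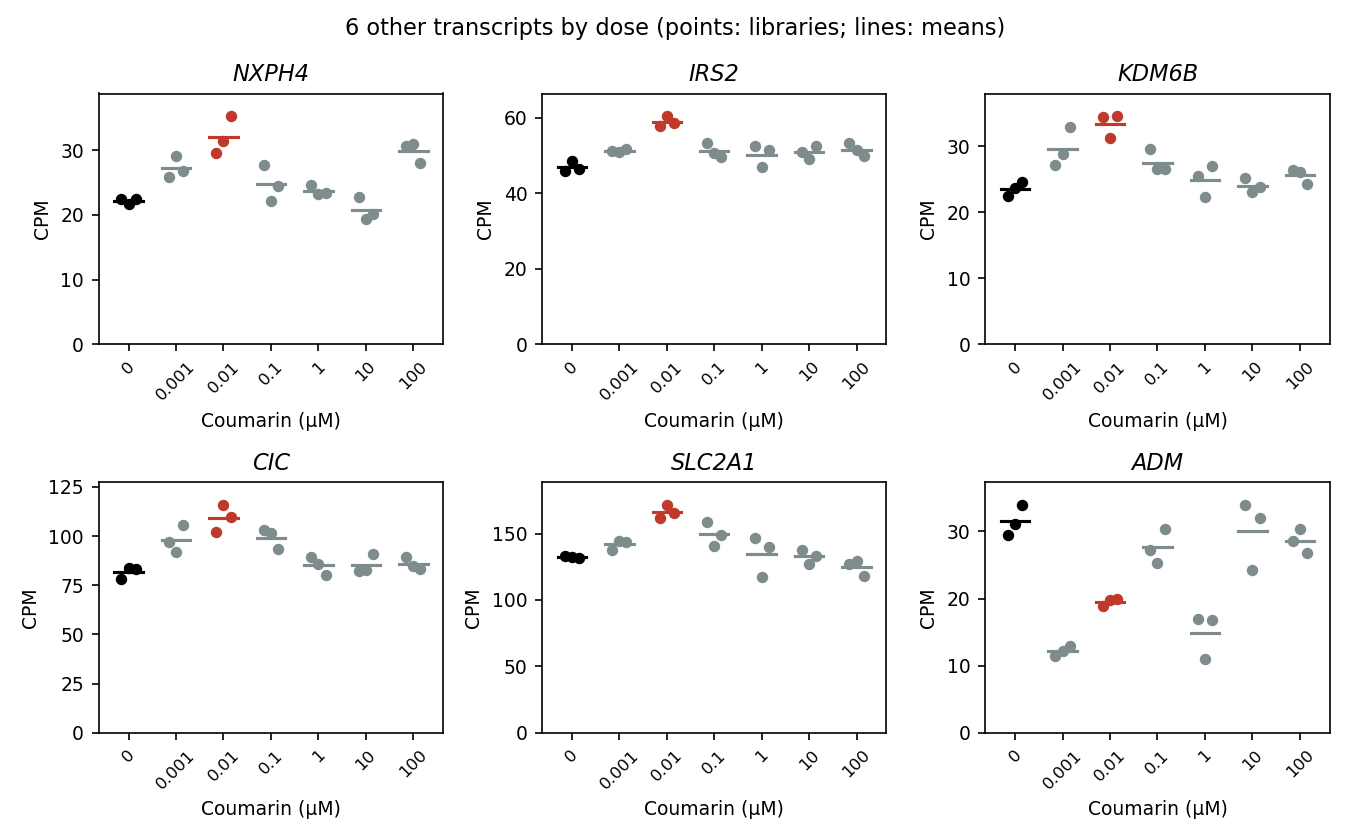
Level of NXPH4, IRS2, KDM6B, CIC, SLC2A1 and ADM in CPM (vertical axis, from 0) at each coumarin dose in µM (horizontal axis, not to scale); points are libraries, lines are means of 3, red is 0.01 µM and black is untreated. The first 5 have their highest mean at 0.01 µM, and ADM is low at 0.001, 0.01 and 1 µM.

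Among the largest rises against untreated cells were transcripts that did not pass against the neighbouring doses. FOXP4, a forkhead transcription factor, had 62.7, 67.7 and 70.2 CPM at 0.01 µM, against 46.3, 43.9 and 42.8 CPM in untreated cells (1.51-fold, edgeR adjusted p = 6.805e-05). BCL9L, a coactivator of beta-catenin, had 129.9, 136 and 140.4 CPM, against 90.5, 100.2 and 93.0 CPM. Both were chosen for groups that do not overlap, and both calls held in the 6 leave-one-out fits. That of FOXP4 ended without the 3 libraries that stood apart. CYP11A1, which makes pregnenolone from cholesterol, had 1.35, 1.58 and 1.498 CPM at 0.01 µM, against 0.768, 0.691 and 1.03 CPM in untreated cells, a low level at which 4 of the 6 leave-one-out fits (without untreated replicate 1 or 2, or 0.01 µM replicate 2 or 3) ended the call.

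ATP5ME, a small subunit of ATP synthase, had 34.0, 33.3 and 38.9 CPM at 0.01 µM, against 22.8, 20.4 and 19.8 CPM in untreated cells. Its call ended without untreated replicate 2 or 3 or 0.01 µM replicate 2 or 3. Rises of small adjusted p included those of PACS1, a sorting adaptor, COL5A1, PTPN23, an endosomal phosphatase-like protein, and the cytoskeletal gene MYH9. MYH9, the heavy chain of non-muscle myosin, had 773, 794 and 819 CPM at 0.01 µM, against 637, 615 and 587 CPM in untreated cells. PACS1 had 108, 115 and 112 CPM, against 83.4, 85.9 and 79.3 CPM. PACS1, COL5A1 and PTPN23 passed under each of the 20 alternatives.

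**Figure D3:**
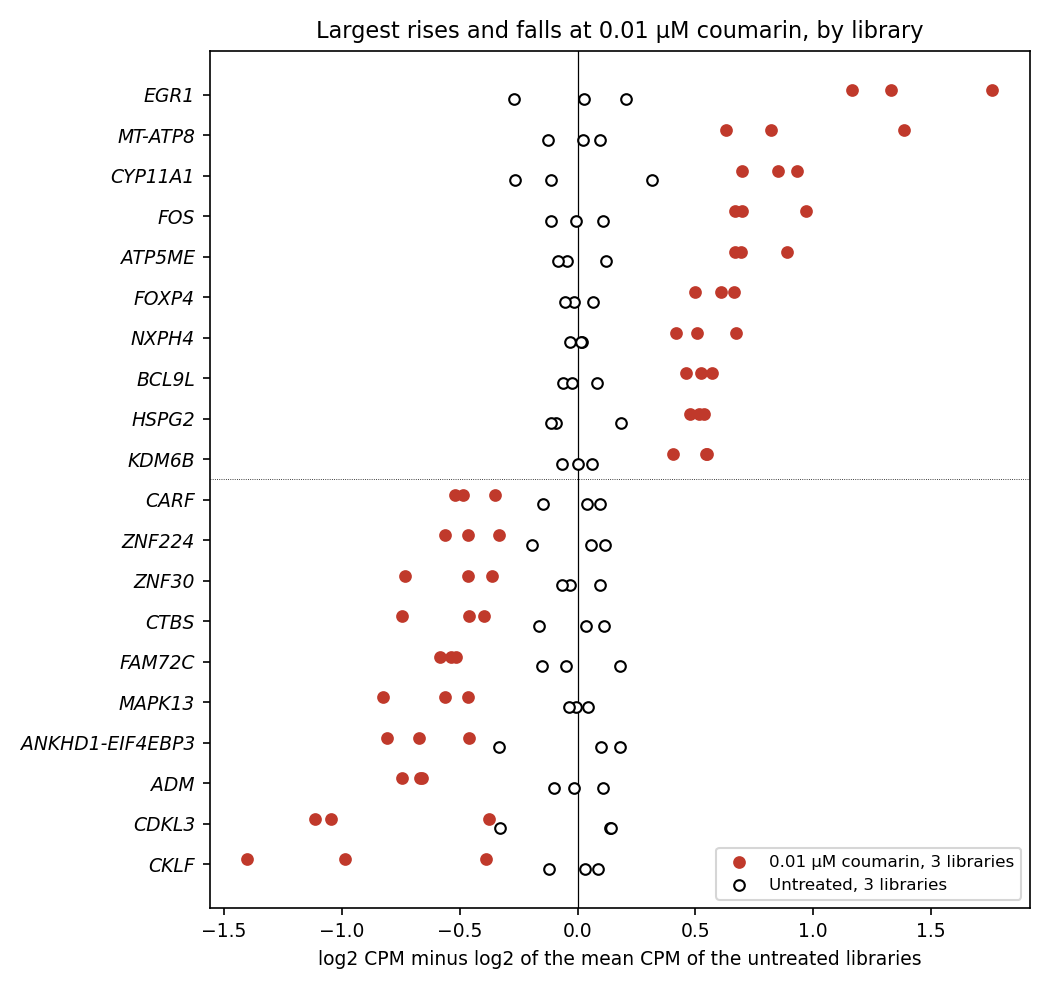
Level of the 10 largest rises and 10 largest falls among protein-coding genes of at least 1 CPM, as log2 CPM minus log2 of the untreated mean (horizontal axis) for each gene (vertical axis); red points are the 3 libraries at 0.01 µM and open points the 3 untreated ones. These genes were chosen for groups that do not overlap, and EGR1 lies farthest to the right.

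Collagen and matrix genes had the largest share of rises of any pathway list of at least 10 tested genes: 13 of 23 tested rose and 10 did not pass, beside 4.77% of all genes. The list's median log2 difference was 0.20, and in 20 of its 23 tested genes the 3 treated libraries lay above the 3 untreated ones, beside 13.6% of all genes. COL5A1, a chain of a fibril-initiating collagen, had 410.1, 406 and 414 CPM at 0.01 µM, against 305, 323 and 307 CPM in untreated cells (1.32-fold, edgeR adjusted p = 3.834e-06). COL4A2, a basement membrane collagen, had 348, 347 and 343 CPM, against 271, 277 and 249 CPM. The groups were apart by more than their spread in both genes.

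FN1, which encodes fibronectin, had 54.9, 49.2 and 54.2 CPM at 0.01 µM, against 39.8, 43.4 and 38.7 CPM in untreated cells. LOXL2, which crosslinks collagen, had 290.0, 284 and 289.7 CPM, against 248, 243 and 245 CPM. The other calls were COL12A1, LAMA5, TIMP1, COL4A1, COL1A1, COL3A1, LAMC1, TIMP2 and COL7A1, with log2 differences between 0.16 and 0.28. TIMP1 and TIMP2 inhibit the proteases that break matrix down, so builders and protectors of matrix are both among the calls. The perlecan gene HSPG2, outside the list, had 457, 468 and 475 CPM at 0.01 µM, against 307, 373 and 303 CPM in untreated cells, and its call held only without untreated replicate 2 among the 6 leave-one-out fits.

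The 13 matrix calls became 10 to 12 when 1 library was left out, 6 with untreated replicate 1 alone, 3 without the 3 libraries that stood apart and 1 with the covariate. No member passed against 0.001, 0.1 and 1 µM, where the list's median log2 difference was 0.08. COL5A1 averaged 312 CPM at 0 µM, 384 at 0.001 µM, 410.0 at 0.01 µM, 382 at 0.1 µM, 353 at 1 µM, 335 at 10 µM and 294 at 100 µM. Markers of fibroblasts and mesenchyme, which include COL1A1 and COL3A1, had the higher sums at 0.01 µM given above.

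Of 19 YAP and TGF-beta response genes, 5 rose (TGFB1, CTGF, CYR61, TGFBI and PMEPA1), beside 4.77% of all genes. The list median was 0.12 on the log2 scale. TGFBI, a secreted matrix protein induced by TGF-beta, had 93.5, 94.7 and 92.0 CPM at 0.01 µM, against 80.2, 81.6 and 80.9 CPM in untreated cells. CTGF, a matrix-associated YAP target, had 54.1, 55.2 and 49.3 CPM, against 45.7, 42.3 and 44.1 CPM. Both were apart between groups. The 5 calls became 3 without untreated replicate 3, 0.01 µM replicate 2 or 0.01 µM replicate 3, 2 with untreated replicate 1 alone and 1 without the 3 libraries that stood apart.

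**Figure D4:**
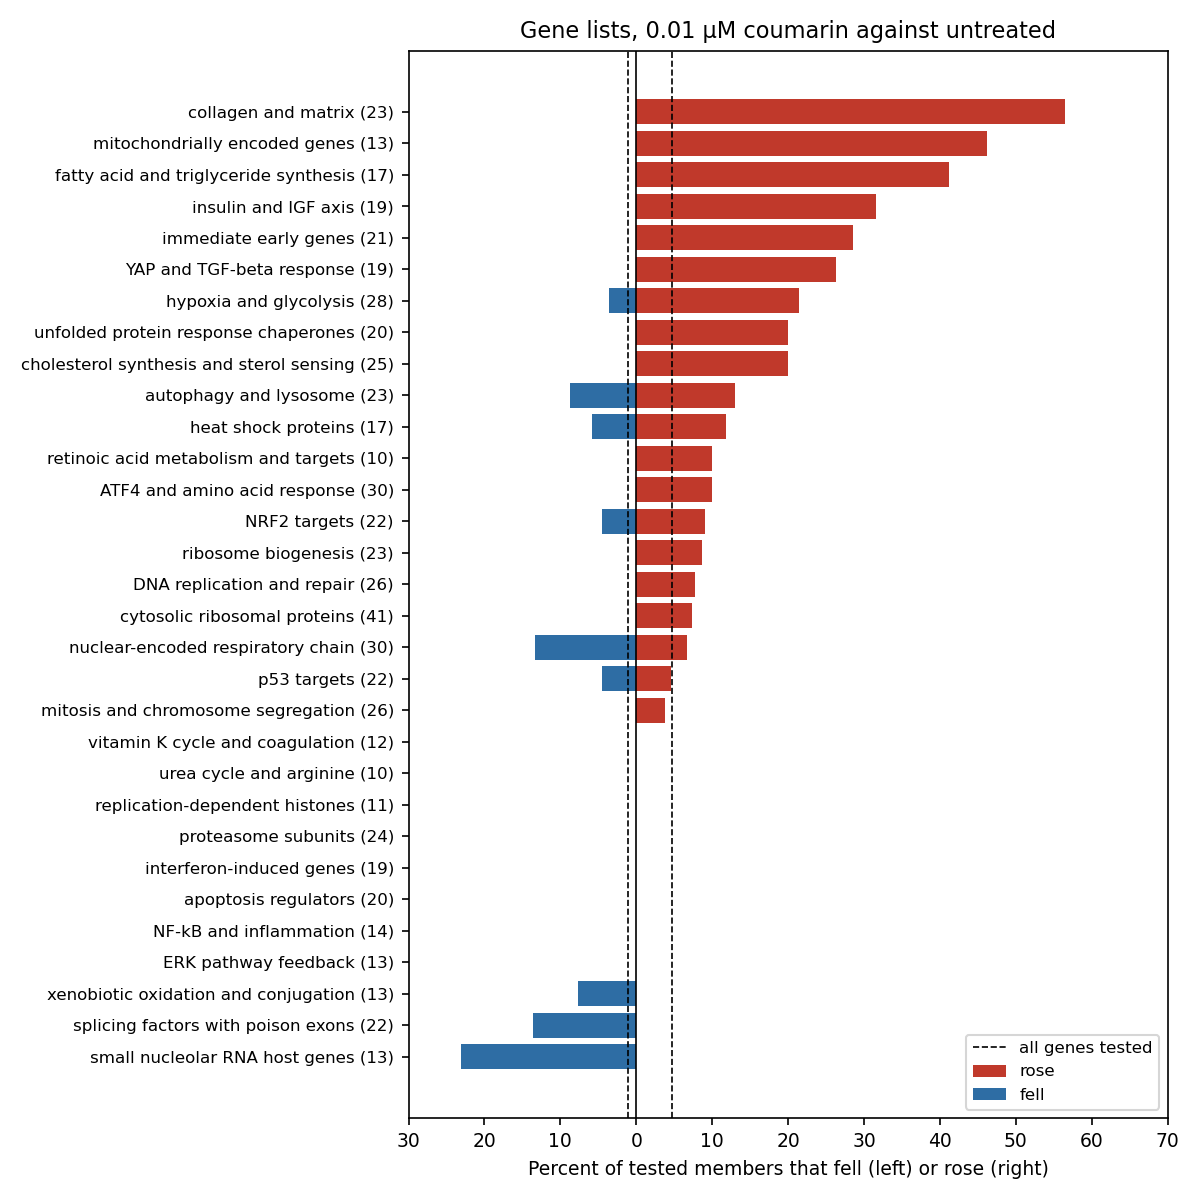
Percent of tested members of each gene list (vertical axis, number tested in brackets, lists of at least 10) that fell, to the left, or rose, to the right, at 0.01 µM against untreated (horizontal axis, percent); dashed lines are the shares over all genes tested, 1.09% and 4.77%. Collagen and matrix genes extend farthest to the right and small nucleolar RNA host genes farthest to the left.

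In the fatty acid and triglyceride list 7 of 17 rose, beside 4.77% of all genes: FASN, SREBF1, SCD, ACACA, FADS2, ACLY and FADS1. FASN, which makes palmitate, had 543, 570.3 and 534 CPM at 0.01 µM, against 445, 442 and 412 CPM in untreated cells (log2 0.34 ± 0.07 SE, edgeR adjusted p = 0.007026). SCD, which puts the first double bond into fatty acids, had 918, 951 and 949 CPM, against 811, 822 and 796 CPM. The median of the list was 0.05 on the log2 scale, since 10 members did not pass. At most 6 genes of the list rose when any 1 library was left out. The 7 calls became 2 without untreated replicate 3, 3 without 0.01 µM replicate 2 and 4 without 0.01 µM replicate 3, and 2 with untreated replicate 1 alone.

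In the cholesterol list 5 of 25 rose, SREBF2, DHCR7 and INSIG1 among them, beside 4.77% of all genes. SREBF2, the sterol-regulated transcription factor, had 274, 289 and 278 CPM at 0.01 µM, against 254, 252 and 248 CPM in untreated cells, without overlap. The calls became 0 without 0.01 µM replicate 2, 1 without untreated replicate 3, 3 without untreated replicate 2 or 0.01 µM replicate 1, and 0 with untreated replicate 1 alone. In neither lipid list did a gene pass against 0.001, 0.1 and 1 µM, where the median log2 differences were -0.02 and -0.05.

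Of 19 genes of the insulin and IGF axis, 6 rose (IGF2R, IRS2, IRS1, FOXO3, IGF1R and TXNIP), beside 4.77% of all genes. IGF2R, which carries lysosomal enzymes and clears IGF2, had 165, 164 and 169 CPM at 0.01 µM, against 130.5, 136 and 121 CPM in untreated cells (log2 0.36 ± 0.05 SE, edgeR adjusted p = 5.278e-05). The receptor gene IGF1R had 211, 211 and 205 CPM, against 180.0, 195 and 183 CPM, without overlap. When any 1 library was left out, the list had 3 or 4 rises in place of 6. It had 3 without 0.01 µM replicate 2 and 3 without 0.01 µM replicate 3. With untreated replicate 1 alone 4 genes were called, and 2 without the 3 libraries that stood apart.

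Among 28 hypoxia and glycolysis genes 6 rose and 1 fell, beside 4.77% and 1.09% of all genes. The rises were SLC2A1, ALDOA, HK1, GPI, PFKP and PKM, all of which take up or break down glucose. ALDOA overlaps another protein-coding gene on the same strand, so its count is uncertain. HK1, a hexokinase, had 124, 126 and 128 CPM at 0.01 µM, against 109, 107 and 103 CPM in untreated cells. The fall was ADM, which encodes the vasodilator peptide adrenomedullin and is induced by low oxygen. It had 18.8, 19.8 and 19.96 CPM at 0.01 µM, against 29.4, 31.1 and 34.0 CPM in untreated cells (1.61-fold lower, edgeR adjusted p = 0.00664). The rule that named it required groups without overlap. By dose it averaged 31.5, 12.1, 19.5, 27.7, 14.9, 30.1 and 28.6 CPM from 0 to 100 µM, and did not pass against 0.001, 0.1 and 1 µM. The 6 rises became 1 with untreated replicate 1 alone and 0 without the 3 libraries that stood apart, where the call of ADM also ended.

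Of the 13 protein genes of mitochondrial DNA 6 rose, beside 4.77% of all genes: MT-ATP8, MT-ND4L, MT-ND3, MT-ND1, MT-ND5 and MT-CYB. The list's median log2 difference was 0.27. MT-ATP8, an ATP synthase subunit, had 55.7, 48.8 and 82.3 CPM at 0.01 µM, against 33.6, 28.9 and 32.1 CPM in untreated cells. MT-ND1, a subunit of complex I, had 1969.6, 1856 and 2405 CPM, against 1695, 1429 and 1439 CPM. In both genes 0.01 µM replicate 3 was the highest library. Mitochondrial genes took 7.47, 7.04 and 8.75% of counts at 0.01 µM, against 7.36, 6.89 and 6.79% in untreated cells. MT-ATP8 overlaps MT-ATP6, and MT-ND4L overlaps MT-ND4, so reads could be split between them in counting. The 6 calls became 3 without untreated replicate 2, untreated replicate 3 or 0.01 µM replicate 3, 0 with untreated replicate 1 alone and 0 without the 3 libraries that stood apart. In the fit of only the groups compared 1 call was left, and those of MT-ATP8, MT-ND4L, MT-ND1 and MT-CYB had ended.

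Nuclear genes of the respiratory chain were mixed, with 2 of 30 higher (SDHA and COX5A) and 4 lower (NDUFB8, COX6A1, NDUFA9 and NDUFA2). Over all genes tested 4.77% were higher and 1.09% lower. NDUFB8, a complex I subunit, had 14.6, 13.6 and 15.9 CPM at 0.01 µM, against 20.05, 20.3 and 19.3 CPM in untreated cells (log2 -0.44 ± 0.08 SE, edgeR adjusted p = 0.0005157), and its call ended only with the covariate among 20 alternatives. When 1 library was omitted, the list had 0 to 3 rises and 1 to 3 falls, NDUFB8 included. The lowest counts were 0 rises and 1 fall, without untreated replicate 2 or 0.01 µM replicate 2, followed by 1 of each without 0.01 µM replicate 1, and 0 rises and 3 falls without untreated replicate 3.

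Of 22 splicing factors with poison exons, which are short exons that mark the RNA for decay, 3 fell (SRSF2, CLK1 and LUC7L3). The list's median was -0.09 on the log2 scale, and in 11 of 22 genes the treated libraries lay below the untreated ones, beside 10.3% of all genes. SRSF2 had 163, 154 and 154 CPM at 0.01 µM, against 188, 175 and 179 CPM in untreated cells (edgeR adjusted p = 0.003584). Of 13 small nucleolar RNA host genes 3 fell (SNHG1, SNHG12 and SNHG15), by 0.15 to 0.21 on the log2 scale. Beside both lists, 1.09% of all genes fell. The splicing calls became 1 without untreated replicate 3, 0.01 µM replicate 2 or 0.01 µM replicate 3, and after length and GC removal 1 splicing factor was lower and 1 higher. Neither list had a call without the 3 libraries that stood apart. The host gene calls became 0 without untreated replicate 2 or 3 or 0.01 µM replicate 2 or 3, and 1 without untreated replicate 1.

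Among protein-coding falls of at least 20 CPM the smallest adjusted p belonged to C12orf57, with 34.8, 34.5 and 36.6 CPM at 0.01 µM, against 47.6, 44.8 and 42.4 CPM in untreated cells (1.27-fold lower, edgeR adjusted p = 0.0006205), which passed under each of the 20 alternatives. The ribosomal protein gene RPL17 had 30.8, 32.0 and 30.8 CPM, against 40.9, 40.4 and 40.2 CPM, and its call ended without the 3 libraries that stood apart. It lies outside the list of 41 cytosolic ribosomal protein genes, of which 3 rose, beside 4.77% of all genes, and 38 did not pass. The median of that list was 0.06 on the log2 scale. Those 3 calls became 6 without untreated replicate 1 and 0 without any 1 of the other 5 libraries. CKLF, a chemokine-like factor, had the largest fitted fall by rule, with 1.69, 2.26 and 3.42 CPM at 0.01 µM, against 4.11, 4.57 and 4.75 CPM in untreated cells. Of the leave-one-out fits, only the one without 0.01 µM replicate 3 kept its call. CDKL3, MAPK13, FAM72C, CTBS, ZNF30, CARF and the read-through transcript ANKHD1-EIF4EBP3 also fell, each with a call that ended in 2 to 5 of the 6 fits. FAM72C has near-identical copies, and the read-through shares exons with its neighbours, so both counts are uncertain. The zinc-finger gene ZNF224 kept its call in the 6 fits and lost it with untreated replicate 1 alone and without the 3 libraries that stood apart.

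Genes that handle coumarin or foreign compounds were mostly at similar levels. CYP2A6 had 0, 0 and 1 counts at 0.01 µM, against 0, 0 and 2 counts in untreated cells, too few to test. CYP3A4, another drug-oxidising enzyme, had 0 counts in these 6 libraries. CYP1A1, the classic target of the aryl hydrocarbon receptor, had 0.760, 0.701 and 0.944 CPM at 0.01 µM, against 0.735, 0.822 and 1.13 CPM in untreated cells, with overlap and an edgeR adjusted p of 0.812. NQO1, a quinone reductase, had 649, 677 and 680.0 CPM, against 731, 659.7 and 684 CPM. Of 13 genes of xenobiotic oxidation and conjugation 1 fell, the glutathione transferase GSTM3, with 153, 159 and 162 CPM, against 185, 175 and 174 CPM, a call that passed under each of the 20 alternatives.

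VKORC1, which recycles vitamin K and is the target of warfarin, had 24.6, 23.2 and 24.7 CPM at 0.01 µM, against 28.0, 27.2 and 28.1 CPM in untreated cells. The groups did not overlap, but the edgeR adjusted p was 0.0640. Among 22 NRF2 targets 2 rose (HMOX1 and PGD) and 1 fell (AKR1C1), and among 8 aryl hydrocarbon receptor targets 1 fell (NFE2L2), a call that ended in each of the 6 leave-one-out fits. The NRF2 rises became 0 without untreated replicate 2 or 3 or 0.01 µM replicate 2 or 3, and 4 without untreated replicate 1. CYP26B1, which degrades retinoic acid, had 19.1, 20.8 and 23.4 CPM, against 19.8, 18.6 and 19.2 CPM. The amino acid response genes CHAC1 and ASNS had edgeR adjusted p of 0.688 and 0.500.

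In 9 lists no gene passed edgeR's test: vitamin K cycle and coagulation, NF-kB, interferon, apoptosis, ERK feedback, proteasome, metallothioneins, replication-dependent histones and urea cycle. Of their 130 tested members, 16 had an unadjusted p under 0.05, beside 3168 of the 16699 genes tested, DESeq2 called 2, both proteasome subunits, and limma called 0. Their medians lay between -0.14 and 0.03 on the log2 scale. MKI67, a proliferation marker, was the 1 gene of 26 in the mitosis list that rose, with 283, 293 and 289.7 CPM at 0.01 µM, against 222, 267 and 232 CPM in untreated cells, and it passed under each of the 20 alternatives. After length and GC removal 6 genes of that list rose.

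Calls were not spread evenly over transcripts. Genes were divided into 4 equal bins. Those in the bin of lowest transcript GC content (under 42.2%) rose in 0.719% and fell in 1.94% of cases, and those in the bin of highest GC content (from 56.3%) rose in 8.67% and fell in 0.407%. By gene length, 1.34% of the shortest bin rose, beside 9.25% of the longest. By mean CPM, 0.263% of the lowest bin and 14.0% of the highest rose. The median GC content was 55.4% in the matrix list and 40.9% in the splicing factor list, beside 48.4% over all genes tested, so both lists lie on the side of GC in which they moved. After each library's trend with length and GC was removed, 1089 genes were called, 881 higher and 208 lower. The rises included 11 of the matrix genes and 8 of the immediate early genes. Against 0.001, 0.1 and 1 µM, 2 immediate early genes rose after the removal, beside 4 before it. Of the lowest GC bin 2.97% still rose, beside 7.45% of the highest. The part of GC and length in the calls was not tested.

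**Figure D5:**
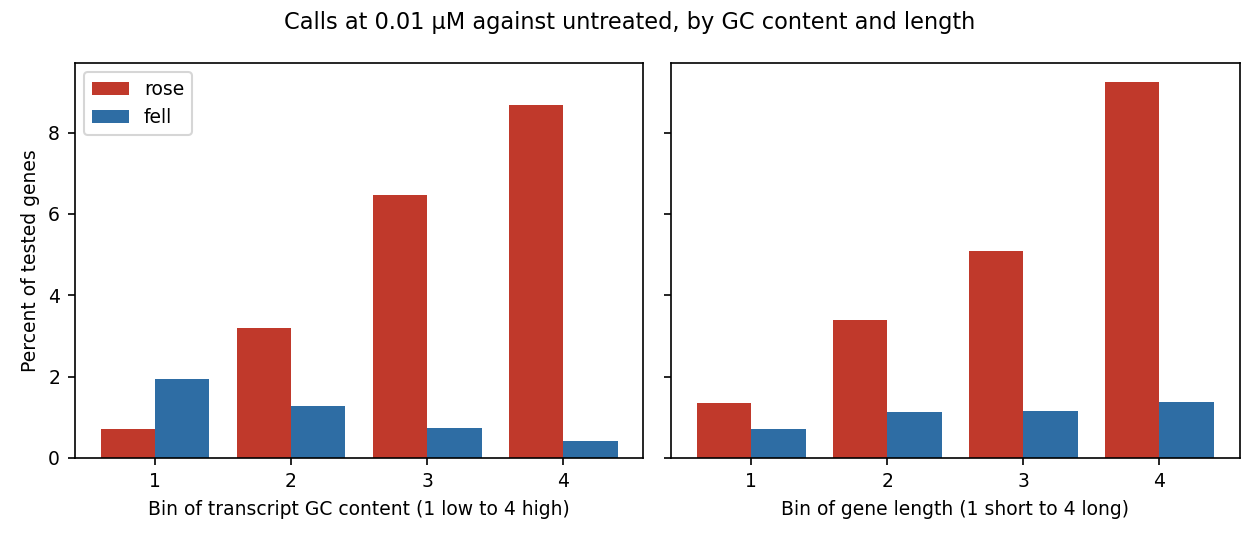
Percent of tested genes that rose (red) or fell (blue) at 0.01 µM against untreated (vertical axis, from 0) in 4 equal bins of transcript GC content (left) and of gene length (right), low to high. Rises grow with both, to 8.67% in the bin of highest GC content and 9.25% in the bin of longest genes, while falls are most frequent in the bin of lowest GC content at 1.94%.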

How the data were processed

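Gene counts and FPKM values were deposited by the authors for 21 libraries; per the submitters' processing notes reads were aligned with HISAT2 to GRCh38 and DESeq2 was used, with versions not given in the sources used here. The deposited counts are whole, unnormalized reads per gene; the deposited FPKM values are the authors' own, scaled by gene length and library size. All 58735 gene IDs matched GENCODE 29.

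Counts of the 21 libraries were fitted together in edgeR 4.0.16 (filterByExpr, TMM scaling, robust quasi-likelihood, 1 mean per dose, 14 residual degrees of freedom), two-sided, with Benjamini-Hochberg adjustment over 16699 genes and a threshold of 0.05. CPM values use TMM-scaled library sizes. They are comparable between libraries for 1 gene, not between genes. SE is the absolute log2 difference over the square root of F. The scripts were tested on simulated data. The design text calls the 3 libraries of each group biological replicates; whether these were separate cultures is not stated, so p-values measure the spread between libraries. The common biological coefficient of variation was 4.49%.

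Named genes were the 10 largest rises and falls and the 5 of smallest p each way at 20 CPM or more. These were protein-coding, at least 1 CPM, called, and without overlap between groups. Up to 6 that passed both comparisons and up to 4 each way against the neighbouring doses were also named, at 1 CPM or more. So were up to 4 of each list and 9 fixed genes. Other members are named where a list's calls are given in full, or after their values were seen. The members and lists were chosen with earlier results of these data known. Alternatives were RLE and upper-quartile scaling, other filters, fewer groups, a replicate block, the share outside genes (from the total behind FPKM) as covariate, length and GC offsets, limma 3.58.1 on log2 FPKM plus 1 or 0.1, DESeq2 1.42.0, a threshold of 0.01 and leaving out libraries. Promoters are from RefSeq. Some genes that met these rules are not reported here.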

Additional observations from a re-analysis of the deposited data

How the results depend on the processing

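Of the 978 genes called against untreated cells, 970 kept their direction with the covariate, 975 with only the groups compared and 973 without the 3 libraries that stood apart. With untreated replicate 1 alone, the chaperone and cytosolic ribosomal protein lists each had 0 rises and 1 fall, against 4 and 3 rises and 0 falls in the fit reported. The 978 calls against untreated cells stayed within 1.5 times under both other scalings, both filters, the fit of only the groups compared (1326), length and GC removal, limma and DESeq2; they were 467 at an adjusted p under 0.01, 38 with the outside-gene share as covariate, 302 with untreated replicate 1 alone, 174 without the 3 libraries that stood apart, and 439 to 1073 when 1 library was left out. The 19 calls against 0.001, 0.1 and 1 µM were 31 with RLE scaling, 89 with no filter, 10 with only the groups compared, 11 with the covariate, 6 after length and GC removal, 1 with limma at either pseudocount, 61 with DESeq2, 3 at an adjusted p under 0.01, 1 without the 3 libraries, and 2 to 89 when 1 library was left out. With the replicate number as a block, 931 genes were called against untreated cells and 25 against the neighbouring doses. Same-numbered libraries at 0.01 µM and 0 µM did not deviate together (correlations of -0.10, -0.06 and -0.01), so the numbers were not taken as a pairing. The fits without the 3 libraries and the length and GC removal for the neighbouring doses were chosen after the data were seen. The causes were not tested.

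At these depths 3 counts, the limit that a count of 0 allows, correspond to 0.0903 to 0.104 CPM per library at 0.01 µM and 0.100 to 0.103 CPM in untreated cells, for counting error only. Genes near 1 CPM therefore rest on few reads.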

Other observations

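Several further lists had a few calls at 0.01 µM. In the list of 20 unfolded protein response chaperones, 4 rose (CALR, HYOU1, PDIA4 and CANX), beside 4.77% of all genes. HYOU1, a chaperone of the endoplasmic reticulum, had 196, 195 and 204 CPM at 0.01 µM, against 182, 169 and 171 CPM in untreated cells (edgeR adjusted p = 0.002628), and kept its call in the 6 leave-one-out fits; the 4 calls became 2 without untreated replicate 2 or 3 or 0.01 µM replicate 2, and 1 without 0.01 µM replicate 3. With untreated replicate 1 alone the call of HYOU1 ended and the list had 0 rises and 1 fall, and without the 3 libraries that stood apart it had 0 calls. In the autophagy and lysosome list 3 of 23 rose (LAMP1, ULK1 and ATG9A) and 2 fell (HEXA and WIPI1). Of all genes 4.77% rose and 1.09% fell. LAMP1, a lysosomal membrane protein, had 402, 405 and 397 CPM, against 348, 326 and 325 CPM. ULK1, the kinase that starts autophagy, had 149.9, 149 and 148 CPM at 0.01 µM, against 127, 131 and 129 CPM in untreated cells, and also passed against 0.001, 0.1 and 1 µM. The call against these doses ended without any 1 of the 0.01 µM replicates, without 0.001 µM replicate 2, 0.1 µM replicate 2 or 3 or 1 µM replicate 3, and without the 3 libraries that stood apart. The falls became 0 without untreated replicate 2 or 3 or 0.01 µM replicate 1 or 2. LAMP1, ULK1 and ATG9A kept their calls against untreated cells in the 6 leave-one-out fits. These calls ended with the covariate and without the 3 libraries that stood apart.

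Keratins rose in 2 of 7 tested members (KRT17 and KRT8), beside 4.77% of all genes. KRT17, a keratin of basal and stressed epithelium, had 153, 155 and 157 CPM at 0.01 µM, against 136, 125 and 123 CPM in untreated cells. The 2 calls became 1 without untreated replicate 2 or 3 or 0.01 µM replicate 2, and 0 with untreated replicate 1 alone or without the 3 libraries. After length and GC removal 1 keratin was higher and 1 lower. Among the 19 antisense genes called, 18 fell, beside 182 of all 978 genes called. The number of antisense genes tested is not given here, so the share of the class that was called is not known. The files do not state whether counting used the strand, so reads of an antisense gene and its partner cannot be told apart.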
